A study of Mus musculus with 8 samples.

Results

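The prostaglandin synthesis and receptor genes described here are Pla2g4a, Ptgs1, Ptgs2, Ptges, Ptgds, Hpgds, Ptgis, Hpgd, Ptger2 and Ptger4. They were taken by symbol, as a fixed list of 10 of the 29621 mouse genes to which the deposited transcript values could be summed. RNA was sequenced after ribosomal depletion from the whole pancreas of C57BL/6 mice at postnatal day 42, with 4 libraries of KPC-OG mice and 4 of KPC mice. KPC-OG mice carried p48-Cre, an oncogenic allele behind a lox-stop-lox cassette, Trp53fl/fl and R26tm1(LSL-OG). KPC mice carried the same alleles without R26tm1(LSL-OG). The p48 promoter drives Cre in the pancreatic epithelial lineage, so stromal, vascular and immune cells of these organs are expected to be unrecombined. Both genotypes therefore carry the tumour-initiating alleles, and neither group is a healthy pancreas. The comparison asked how the pancreas of the mice with the OG allele, which the series title calls an antigenic version of the model, differed from the pancreas of mice lacking it. Nothing in the labels states that the libraries of a group came from separate mice, and the spread behind each p-value may then be technical.

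Prostaglandins are short-lived lipid signals made from arachidonic acid. Cytosolic phospholipase A2 frees the fatty acid from membranes, a cyclooxygenase turns it into the unstable intermediate prostaglandin H2, and a terminal synthase fixes which prostaglandin leaves the cell. The products act on G protein-coupled receptors of the same or neighbouring cells and are inactivated by a dehydrogenase, and in the pancreas they are known for their part in inflammation and in the stroma of tumours.

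Total estimated reads were 13671606 to 18292115 per library in KPC-OG and 7373286 to 11292570 in KPC. Reads assigned to Lars2, a mitochondrial tRNA synthetase gene, took 3.73% to 7.12% of gene-level reads in KPC-OG and 20.8% to 30.0% in KPC, so depth left for other genes was lower still in KPC. TMM scaling, which aligns libraries on their typical gene, gave factors of 1.14 to 2.28 in KPC-OG and 0.483 to 0.653 in KPC. Levels are given as TMM-scaled CPM (reads scaled to a common library size), fold changes as KPC-OG over KPC, and a gene was called when its adjusted p from edgeR's quasi-likelihood test over 14267 genes was under 0.05. Directions are relative to the typical gene, since scaling by library size alone moved the typical gene's log2 fold change by 1.74 from its TMM value. Depth and genotype cannot be told apart, because every KPC-OG library was deeper than every KPC library. KPC-OG 2 and KPC-OG 3 stood apart in liver and gut transcripts. The albumin gene Alb was at 177 and 194 CPM in them and at 2.63 to 6.49 CPM in the 6 other libraries, and Fabp1, a liver and gut fatty acid binding protein gene, was at 8.71 and 8.64 CPM in them and at 0.595 CPM or below elsewhere.

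Of the 10 genes, 9 had enough reads to be tested, and 6 of these were higher in KPC-OG: Pla2g4a, Ptgs1, Ptges, Hpgds, Ptgis and Hpgd. Ptgs2, Ptger2 and Ptger4 did not pass, and none was called lower. Over all genes tested, 17.4% passed as higher in KPC-OG and 16.6% passed as lower. The median log2 fold change was 1.15 over the 9 genes, beside 0.09 over all genes tested. Every KPC-OG library lay above every KPC library in 6 of the 9, namely Ptgs1, Ptges, Hpgds, Ptgis, Hpgd and Ptger2. Ptger2 and Ptgs2 passed the filter on low counts only through the deeper KPC-OG libraries. Neither was tested when reads were thinned to 1 effective depth, so the separation of Ptger2 is a description only. Among all genes tested, 17.6% had no overlap with KPC-OG above KPC and 17.0% had no overlap with KPC-OG below KPC. The count depended on the scaling and the test. With library sizes re-centred on the median gene, 3 of the 9 were called higher (Pla2g4a, Ptgs1 and Ptgis), where 6.43% of all genes were. With limma-voom 3 were called higher (Ptgs1, Hpgds and Ptgis), where 12.3% of all genes were. With library sizes and no re-centring all 9 were called higher, as were 91.7% of all genes. In bulk tissue, fewer cells of a type and less RNA per cell cannot be told apart.

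**Figure D1:**
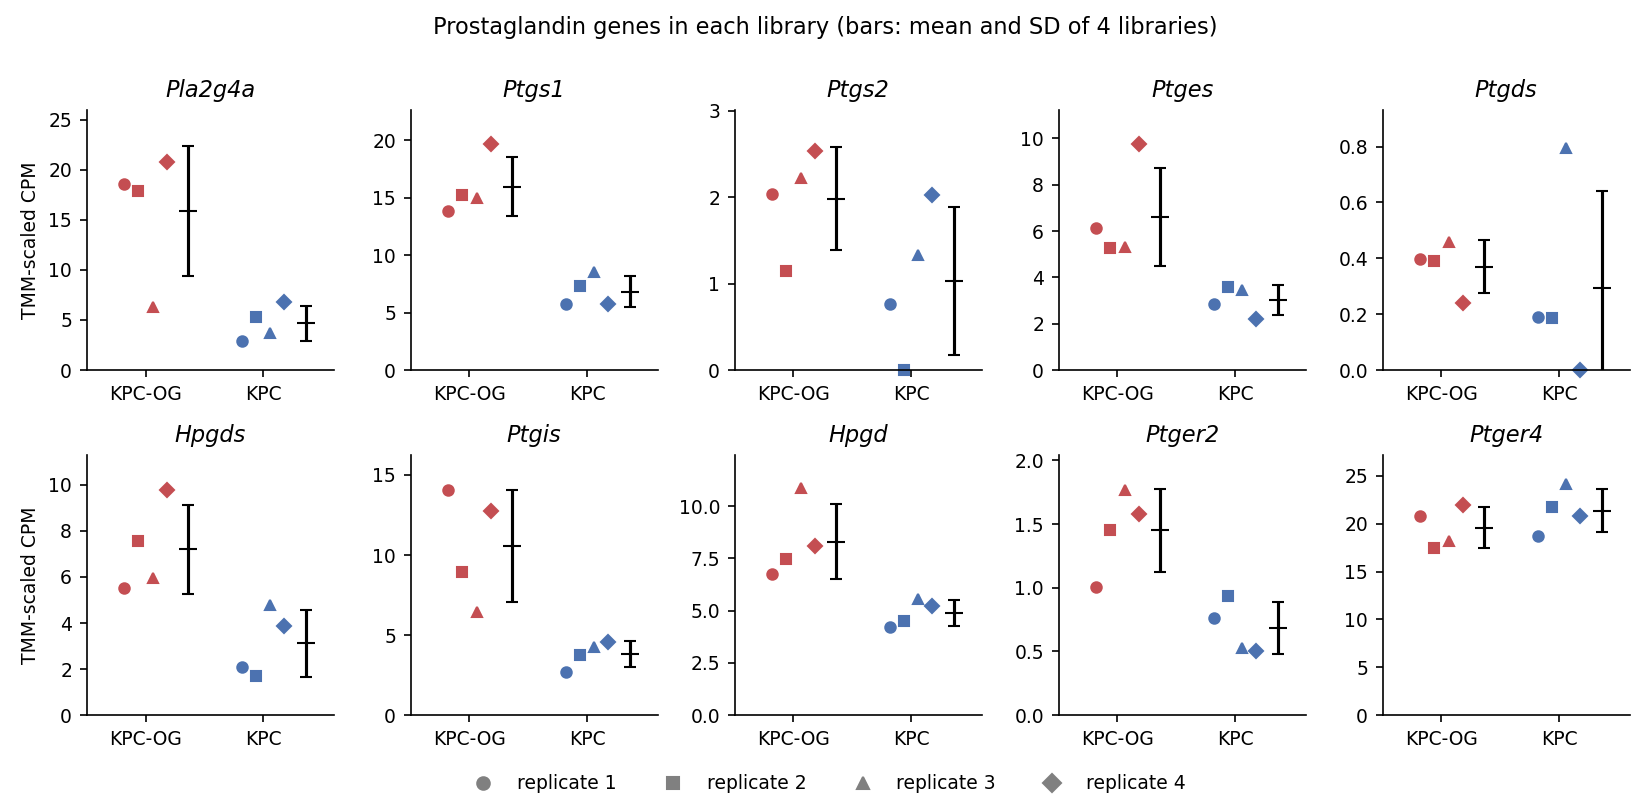
TMM-scaled CPM (vertical axis, linear, a different scale in each panel) of the 10 genes in the 4 KPC-OG libraries (left, red) and the 4 KPC libraries (right, blue), with marker shapes for the replicate numbers and black bars for mean and SD. The groups are apart for Ptgs1, Ptges, Hpgds, Ptgis, Hpgd and Ptger2, KPC-OG 3 is the low red point of Pla2g4a at 6.29, and the groups overlap for Ptger4, Ptgs2 and Ptgds.

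Pla2g4a encodes cytosolic phospholipase A2 alpha, the enzyme that releases arachidonic acid from membrane lipids (ENSMUSG00000056220, GRCm38 chromosome 1, 149829618 to 149961290, minus strand). Its levels were 18.6, 17.9, 6.29 and 20.8 CPM in KPC-OG 1 to 4, from 612, 690, 96 and 699 reads, and 2.87, 5.26, 3.72 and 6.75 CPM in KPC 1 to 4, from 15, 28, 14 and 40 reads. KPC-OG 1, 2 and 4 were above every KPC library, while KPC-OG 3 lay just below KPC 4. The means were 15.9 ± 6.53 CPM in KPC-OG and 4.65 ± 1.72 CPM in KPC (SD, n = 4 each). Pla2g4a rose 3.39-fold in KPC-OG, a log2 fold change of 1.76 ± 0.40 (SE; edgeR adjusted p = 0.00854). This was the greatest fold change among the 9 tested genes. Without KPC-OG 3 it was 2.03 on the log2 scale (edgeR adjusted p = 1.61e-04), and with limma-voom it was 1.66 and not called (adjusted p = 0.0953). KPC-OG 3 also had the highest summed acinar markers of the KPC-OG libraries. Its summed duct, tuft, fibroblast and smooth muscle markers were the lowest of that group, and the part of these markers in the result was not tested.

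Ptgs1 and Ptgs2 encode the cyclooxygenases COX-1 and COX-2, which catalyse the same committed step. Textbooks describe Ptgs1 as the form present in many resting cells and Ptgs2 as the form induced by growth factors and inflammation. Ptgs1 (ENSMUSG00000047250, chromosome 2, 36230426 to 36252272, plus strand) was at 13.9, 15.2, 15.0 and 19.7 CPM in KPC-OG 1 to 4, from 456, 586, 229 and 661 reads, and at 5.73, 7.33, 8.49 and 5.74 CPM in KPC 1 to 4, from 30, 39, 32 and 34 reads. The lowest KPC-OG library was above the highest KPC library. Mean levels were 15.9 ± 2.56 CPM in KPC-OG and 6.82 ± 1.34 CPM in KPC (SD, n = 4 each), and Ptgs1 rose 2.36-fold (log2 fold change 1.24 ± 0.18 SE, edgeR adjusted p = 0.0012). Its log2 fold change lay between 1.12 and 1.34 when any library was left out.

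Ptgs2 (ENSMUSG00000032487, chromosome 1, 150100031 to 150108227, plus strand) was far lower than Ptgs1 in the number of reads. It had 67, 44, 34 and 85 reads in KPC-OG 1 to 4 and 4, 0, 5 and 12 reads in KPC 1 to 4. On the scaled level these were 2.04, 1.14, 2.23 and 2.53 CPM in KPC-OG and 0.764, 0, 1.33 and 2.03 CPM in KPC. The ranges overlapped, since KPC-OG 2 lay below KPC 3 and KPC 4. The mean was 1.98 ± 0.598 CPM in KPC-OG and 1.03 ± 0.859 CPM in KPC (SD, n = 4 each). The 1.91-fold difference was not called (log2 fold change 0.93 ± 0.63 SE, edgeR adjusted p = 0.279), and its 95% interval ran from 0.723-fold to 5.05-fold, so neither a change of that size nor its absence was shown.

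The stretches of 250 bases upstream of the annotated start of the cyclooxygenase genes are shown because these enzymes perform the same step and only Ptgs1 was called. They come from RefSeq on GRCm38.p6, 5′ to 3′ on the gene's strand, with capitals marking matches on either strand to any of the 7 motifs searched: the TATA box (TATAAA), the cyclic AMP response element (TGACGTCA), the E-box (CACGTG), AP-1 (TGANTCA), the SP1 GC box (GGGCGG), C/EBP (TTNNGNAA) and NF-kappaB.
Ptgs1, chr2:36230176-36230425, plus strand: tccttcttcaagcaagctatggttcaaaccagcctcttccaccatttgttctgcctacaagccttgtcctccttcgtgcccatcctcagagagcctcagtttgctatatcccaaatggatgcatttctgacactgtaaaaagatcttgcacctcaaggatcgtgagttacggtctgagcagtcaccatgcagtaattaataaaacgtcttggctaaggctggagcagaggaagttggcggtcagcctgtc
Ptgs2, chr1:150099781-150100030, plus strand: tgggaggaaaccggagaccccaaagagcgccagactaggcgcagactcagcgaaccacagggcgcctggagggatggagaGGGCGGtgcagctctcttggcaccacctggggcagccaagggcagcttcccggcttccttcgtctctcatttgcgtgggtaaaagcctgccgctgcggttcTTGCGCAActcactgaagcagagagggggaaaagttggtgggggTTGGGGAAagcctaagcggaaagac
The Ptgs2 stretch held 1 GC box, starting 170 bases before the start site, and 2 C/EBP matches, starting 69 and 25 bases before it, with no overlap between motifs. The Ptgs1 stretch held no match to any of the 7. Its G and C content was 48.0%, and that of Ptgs2 was 61.6%. Among 32851 RefSeq promoters of this length, 32.7% held a GC box and 36.8% a C/EBP match. Of the 9 member genes in the RefSeq table, all but Ptgis, 4 held a GC box (Ptgs2, Ptges, Hpgd and Ptger4) and 7 a C/EBP match (Pla2g4a, Ptgs2, Ptges, Ptgds, Hpgds, Hpgd and Ptger2). A TATA box was found in Pla2g4a alone, beside 12.4% of all promoters, and AP-1 and NF-kappaB matches in Ptgds alone, beside 6.75% and 7.25%. Within these 250 bases no member held a cyclic AMP response element or an E-box, which 1.55% and 6.02% of all promoters held. Bases outside that window, also those past the annotated start, were not searched, so no absence from a whole promoter is shown. A match is a description of the letters and not of binding.

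The cyclooxygenases were set against each other within each library, as the log2 ratio of Ptgs2 to Ptgs1 reads with 0.5 added to each. The ratio was -2.76, -3.72, -2.73 and -2.95 in KPC-OG 1 to 4 and -2.76, -6.30, -2.56 and -1.46 in KPC 1 to 4. Ptgs1 had more reads than Ptgs2 in all 8 libraries. The KPC values spread far more widely than those of KPC-OG and enclosed them, the lowest being KPC 2, which had no Ptgs2 read. The difference, KPC-OG minus KPC, was 0.23 and did not pass the exact permutation test, taken two-sided (p = 0.943, also 0.943 after adjustment over the 4 ratios compared, where the smallest p that 70 arrangements allow is 0.0286). Without KPC 2 the difference was -0.78, so even its sign rested on that library. A call for Ptgs1 and none for Ptgs2 thus does not show that their responses differed.

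Among terminal synthases, Ptges encodes microsomal prostaglandin E synthase-1, the inducible enzyme of prostaglandin E2 synthesis (ENSMUSG00000050737, chromosome 2, 30889471 to 30929863, minus strand). It was at 6.15, 5.26, 5.30 and 9.73 CPM in KPC-OG 1 to 4, from 202, 203, 81 and 327 reads, and at 2.87, 3.57, 3.45 and 2.19 CPM in KPC 1 to 4, from 15, 19, 13 and 13 reads. KPC-OG 4 was highest, and the groups did not overlap. Ptges averaged 6.61 ± 2.12 CPM in KPC-OG and 3.02 ± 0.630 CPM in KPC (SD, n = 4 each) and rose 2.21-fold (log2 fold change 1.15 ± 0.28 SE, edgeR adjusted p = 0.0103). The call was lost with limma-voom (log2 fold change 1.12, adjusted p = 0.0754) and with re-centred library sizes (1.10, adjusted p = 0.0855), where the size hardly moved. It was also lost with TPM at pseudocounts of 1 (0.67, limma adjusted p = 0.213) and 0.1 (1.08, limma adjusted p = 0.183).

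Ptgis encodes prostacyclin synthase, a cytochrome P450 enzyme of vessel walls and stromal cells (ENSMUSG00000017969, chromosome 2, 167191805 to 167240604, minus strand). Its level was 14.1, 8.97, 6.42 and 12.8 CPM in KPC-OG 1 to 4, from 462, 346, 98 and 429 reads, and 2.67, 3.76, 4.25 and 4.56 CPM in KPC 1 to 4, from 14, 20, 16 and 27 reads. KPC-OG 3 was again the lowest of its group and still above every KPC library. With means of 10.6 ± 3.51 CPM in KPC-OG and 3.81 ± 0.826 CPM in KPC (SD, n = 4 each), Ptgis rose 2.78-fold (log2 fold change 1.48 ± 0.28 SE, edgeR adjusted p = 0.00365). The call was kept without each library in turn and lost with TPM at pseudocounts of 1 (0.96, limma adjusted p = 0.099) and 0.1 (1.04, limma adjusted p = 0.185).

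Hpgds encodes hematopoietic prostaglandin D synthase, the form of mast cells, macrophages and other immune cells and of tuft cells (ENSMUSG00000029919, chromosome 6, 65117293 to 65144908, minus strand). It was at 5.51, 7.54, 5.96 and 9.77 CPM in KPC-OG 1 to 4, from 181, 291, 91 and 328 reads, and at 2.10, 1.69, 4.78 and 3.88 CPM in KPC 1 to 4, from 11, 9, 18 and 23 reads. The groups did not overlap, with KPC 3 closest to the KPC-OG range. The means were 7.19 ± 1.92 CPM in KPC-OG and 3.11 ± 1.46 CPM in KPC (SD, n = 4 each), and the gene rose 2.35-fold (log2 fold change 1.24 ± 0.33 SE, edgeR adjusted p = 0.0159). The adjusted p lay just past the threshold without KPC 1 (log2 fold change 1.08, edgeR adjusted p = 0.051) and without KPC-OG 4 (1.05, edgeR adjusted p = 0.0514). The call was also lost with re-centred library sizes (1.21, edgeR adjusted p = 0.0681) and with TPM at pseudocounts of 1 (0.53, limma adjusted p = 0.302) and 0.1 (0.92, limma adjusted p = 0.24).

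Ptgds encodes the lipocalin-type prostaglandin D synthase, known from brain and its coverings (ENSMUSG00000015090, chromosome 2, 25466709 to 25470046, minus strand). It had 13, 15, 7 and 8 reads in KPC-OG 1 to 4 and 1, 1, 3 and 0 reads in KPC 1 to 4, too few to be tested. Scaled levels were 0.238 to 0.458 CPM in KPC-OG and 0 to 0.796 CPM in KPC, and the ranges overlapped. Fitted without the filter on low counts, its log2 fold change was 0.50 ± 0.88 (SE; edgeR adjusted p = 0.718). Protein-coding transcripts took 83.0% of its estimated reads in KPC-OG and 0.0% in KPC, where the 4.47 estimated reads of the group all lay on a processed transcript. The log2 ratio of Hpgds to Ptgds reads, with 0.5 added to each, averaged 4.22 ± 0.753 in KPC-OG and 3.39 ± 1.46 in KPC (SD, n = 4 each; difference 0.83, exact permutation p = 0.371, adjusted p = 0.495). Reads of the hematopoietic form outnumbered those of the lipocalin form in all 8 libraries.

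Hpgd encodes hydroxyprostaglandin dehydrogenase, which starts the breakdown of prostaglandins (ENSMUSG00000031613, chromosome 8, 56294585 to 56321043, plus strand). It was at 6.76, 7.46, 10.9 and 8.10 CPM in KPC-OG 1 to 4, from 222, 288, 166 and 272 reads, and at 4.202, 4.51, 5.57 and 5.23 CPM in KPC 1 to 4, from 22, 24, 21 and 31 reads. Here KPC-OG 3 was the highest library, where it had been the lowest for Pla2g4a and Ptgis. Hpgd averaged 8.30 ± 1.80 CPM in KPC-OG and 4.88 ± 0.634 CPM in KPC (SD, n = 4 each) and rose 1.70-fold, with no overlap of the groups (log2 fold change 0.76 ± 0.20 SE, edgeR adjusted p = 0.016). Hpgd stayed called without KPC-OG 2 alone (0.81, edgeR adjusted p = 0.0314) and without KPC-OG 3 alone (0.63, edgeR adjusted p = 0.0243). Without both, the libraries with liver and gut transcripts, its log2 fold change was 0.63 and not called (edgeR adjusted p = 0.0768). That fit had 2 KPC-OG libraries against 4. The call was also lost with limma-voom (0.705, adjusted p = 0.0646) and with re-centred library sizes (0.64, edgeR adjusted p = 0.202). It was lost too with TPM at pseudocounts of 1 (0.61, limma adjusted p = 0.115) and 0.1 (0.59, limma adjusted p = 0.227). In the edgeR test with TMM, Ptges, for the making of prostaglandin E2, and Hpgd, for its removal, were both called higher in KPC-OG. The other prostaglandin E synthase genes, Ptges2 (log2 fold change 0.03, edgeR adjusted p = 0.891) and Ptges3 (0.26, edgeR adjusted p = 0.188), were not called. The log2 ratio of Ptges to Hpgd reads was -0.14, -0.50, -1.03 and 0.27 in KPC-OG 1 to 4 and -0.54, -0.33, -0.67 and -1.22 in KPC 1 to 4. The ranges overlapped, and the difference of 0.34 did not pass the exact permutation test (p = 0.314, adjusted p = 0.495).

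Ptger2 and Ptger4 encode the prostaglandin E2 receptors EP2 and EP4, which raise cyclic AMP through a stimulatory G protein. Ptger2 (ENSMUSG00000037759, chromosome 14, 44988195 to 45003820, plus strand) had 33, 56, 27 and 53 reads in KPC-OG 1 to 4 and 4, 5, 2 and 3 reads in KPC 1 to 4. These were 1.005, 1.45, 1.77 and 1.58 CPM in KPC-OG and 0.764, 0.939, 0.531 and 0.507 CPM in KPC. The groups did not overlap, though KPC-OG 1 and KPC 2 lay close together. The 2.08-fold difference was not called (log2 fold change 1.05 ± 0.40 SE, 95% interval 0.16 to 1.95, edgeR adjusted p = 0.0666).

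Ptger4 (ENSMUSG00000039942, chromosome 15, 5206661 to 5244187, minus strand) was at 20.8, 17.4, 18.2 and 22.0 CPM in KPC-OG 1 to 4, from 683, 673, 278 and 738 reads, and at 18.7, 21.8, 24.1 and 20.8 CPM in KPC 1 to 4, from 98, 116, 91 and 123 reads. The libraries of the groups were interleaved. The means were 19.6 ± 2.13 CPM in KPC-OG and 21.4 ± 2.26 CPM in KPC (SD, n = 4 each), and the difference was not called (log2 fold change -0.12 ± 0.13 SE, edgeR adjusted p = 0.507). Its 95% interval ran from 0.755-fold to 1.12-fold, which leaves out the fold changes fitted for the 6 called genes. The span of Ptger4 overlaps that of Ttc33 on the opposite strand, and without strand, reads of any transcript sequence they share cannot be told apart. With library sizes alone Ptger4 was 1.63 higher on the log2 scale, a setting that moved the typical gene by 1.74. The log2 ratio of Ptger4 to Ptger2 reads was 4.35, 3.58, 3.34 and 3.79 in KPC-OG 1 to 4 and 4.45, 4.40, 5.19 and 5.14 in KPC 1 to 4. Every KPC-OG library was below every KPC library in this ratio, though KPC-OG 1 (4.35) and KPC 2 (4.40) lay close together. The KPC values rest on 2 to 5 Ptger2 reads and on the 0.5 added to each count. With 1 read added in its place, KPC-OG 1 lies above KPC 1 and KPC 2, and the groups overlap. The difference of -1.03 reached the smallest exact p that the design allows, 0.0286, and was 0.114 after adjustment over the 4 ratios. A ratio that alone reaches that p cannot pass after this adjustment, so the adjusted value cannot decide. The unadjusted p holds only while the groups stay apart.

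**Figure D2:**
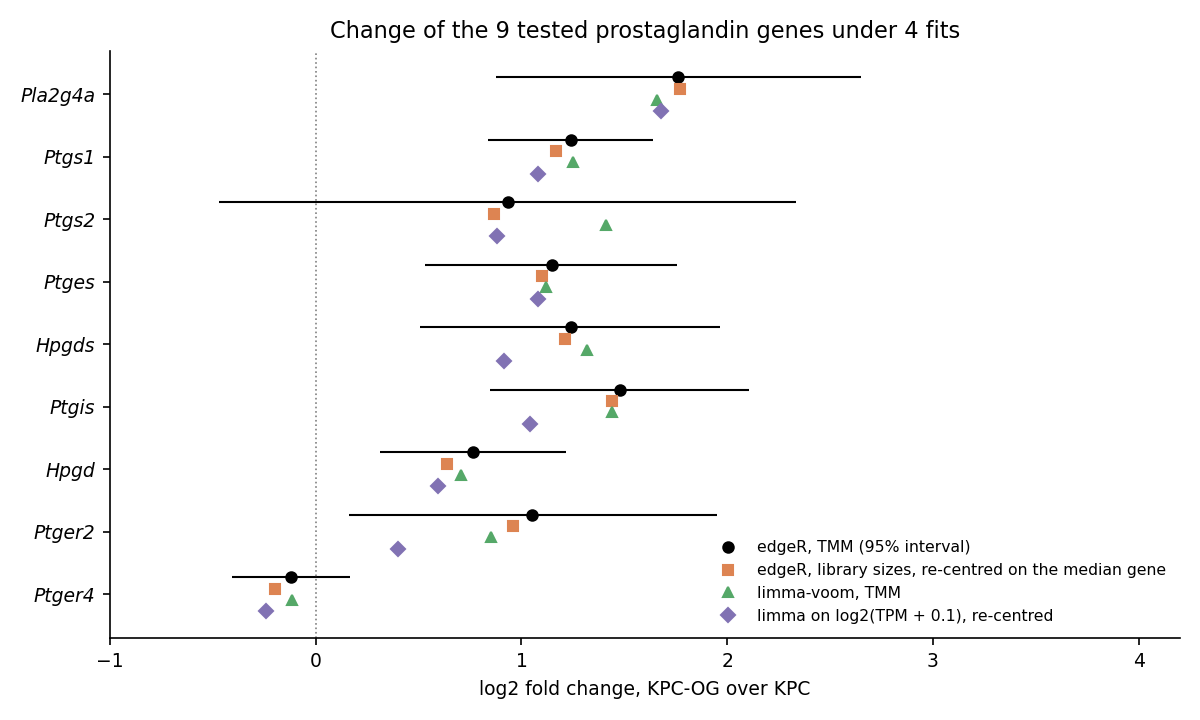
Log2 fold change, KPC-OG over KPC (horizontal axis), of the 9 tested genes under the edgeR test with TMM, with its 95% interval as a line, and under 3 other settings shown by marker shape. Pla2g4a is the highest with TMM at 1.76 and Ptger4 lies at -0.12, with an interval that crosses 0.

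Compared per length, in the deposited TPM, levels of different genes can be set side by side. In KPC-OG the order of mean TPM levels was Ptgs1 (19.7 ± 9.03), Pla2g4a (19.7 ± 11.2), Ptger4 (14.9 ± 5.10), Ptgis (14.8 ± 7.41), Hpgd (11.6 ± 2.48), Ptges (7.53 ± 5.39) and Hpgds (6.32 ± 3.77), with Ptgs2 (1.39 ± 0.446), Ptgds (1.12 ± 0.222) and Ptger2 (0.962 ± 0.315) last (SD, n = 4). The only neighbours in that order whose ranges did not overlap were Hpgds and Ptgs2. In KPC the order of mean TPM levels was Ptger4 (5.23 ± 1.13), Ptgs1 (2.61 ± 0.400), Hpgd (2.31 ± 0.454), Ptgis (2.001 ± 0.842), Pla2g4a (1.54 ± 0.387), Ptges (0.954 ± 0.527), Hpgds (0.880 ± 0.376), Ptgds (0.340 ± 0.401), Ptgs2 (0.178 ± 0.154) and Ptger2 (0.148 ± 0.0708; SD, n = 4). The only neighbours there whose ranges did not overlap were Ptger4 and Ptgs1. The EP4 receptor gene was thus first of the 10 in KPC, while in KPC-OG its range overlapped those of Ptgs1, Pla2g4a and Ptgis. TPM is scaled within a library, so its levels are not to be compared between the groups as they stand.

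The genes whose levels followed Ptgs1 most closely over the 8 libraries were Tmem150c (Pearson r = 0.989), Mcub (0.988) and Piezo2 (0.987), on log2 CPM. Those closest to Ptgs2 were Stac2 (Pearson r = 0.974), Zfp961 (0.964) and Lilrb4a (0.964). In KPC, Tmem150c averaged 0.113 CPM and Stac2 0.656 CPM, which is near the floor, as is Ptgs2 there. These correlations describe the same 8 libraries in 2 groups, and the difference between the groups and in depth enters each of them.

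Beyond these genes, 53 other genes of eicosanoid metabolism were listed, 37 were tested, 14 rose in KPC-OG, 4 fell and 19 did not pass. Over all genes tested 17.4% were called higher and 16.6% lower, and no class was tested against them or against another class, so the counts by class are descriptions. The median log2 fold change of the 37 genes was 0.57. Of the other phospholipases A2, 9 of 17 were tested, 3 rose and 2 fell. Pla2g7, the secreted enzyme that breaks down platelet-activating factor, averaged 18.4 CPM in KPC-OG and 7.37 CPM in KPC (log2 fold change 1.30 ± 0.23 SE, edgeR adjusted p = 0.00253). Pla2g1b, the digestive phospholipase of acinar cells, fell to 71.3 CPM in KPC-OG, against 421 CPM in KPC (log2 fold change -2.57 ± 0.62 SE, edgeR adjusted p = 0.0134). It was at 43.9, 29.9, 180 and 31.5 CPM in KPC-OG 1 to 4 and 305 to 608 CPM in KPC, and without KPC-OG 3, the highest of its group, the log2 fold change was -3.57 (edgeR adjusted p = 2.76e-05). Acinar markers fell with Pla2g1b. Pla2g12a fell by 0.66 on the log2 scale, a direction that was reversed with library sizes alone (1.07), while Pla2g2f and the lysosomal Pla2g15 rose by 1.82 and 0.57. The calls of Pla2g2f and Pla2g15 were lost without several libraries (edgeR adjusted p up to 0.0589 and 0.102). That of Pla2g12a was lost with re-centred library sizes (edgeR adjusted p = 0.0668).

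Of the other terminal synthases, 2 of 6 tested were higher, which is within about 1 gene of the share over all genes: Akr1b3, an aldose reductase that can also make prostaglandin F2 alpha (17.9 CPM in KPC-OG and 10.4 CPM in KPC, edgeR adjusted p = 0.00151), and Tbxas1, thromboxane synthase (12.0 CPM in KPC-OG and 5.4 CPM in KPC, edgeR adjusted p = 0.0118). Ptges3, the cytosolic prostaglandin E synthase and HSP90 co-chaperone, had the highest level per length in the class and was at 38.3 CPM in KPC-OG and 31.9 CPM in KPC (edgeR adjusted p = 0.188). Of the 4 genes of catabolism and transport, all of them tested, 3 were higher. Ptgr1, a reductase that acts after Hpgd, rose by 1.61 ± 0.24 on the log2 scale (edgeR adjusted p = 0.00133), to 16.01 CPM in KPC-OG against 5.25 CPM in KPC. Slco2a1, the prostaglandin uptake transporter, rose by 0.98 ± 0.19 (edgeR adjusted p = 0.00378). The calls of Slco2a1, Akr1b3 and Tbxas1 were lost with re-centred library sizes (edgeR adjusted p = 0.0686, 0.113 and 0.0568). With TPM at a pseudocount of 0.1 those of Slco2a1 and Akr1b3 were lost too (limma adjusted p = 0.271 and 0.123). Abcc4, an efflux pump, barely passed (0.60 ± 0.21, edgeR adjusted p = 0.0498), and its call was lost in 17 of 22 alternatives. Ptgr2 was at 21.4 CPM in KPC-OG and 18.2 CPM in KPC and was not called (edgeR adjusted p = 0.162).

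Of 5 other prostanoid receptor genes tested, none was called higher and 1 was called lower, counts too small to be set apart from the shares of 17.4% and 16.6% over all genes. The gene called lower was Ptger3, which encodes the prostaglandin E2 receptor EP3, a receptor that mainly lowers cyclic AMP. Ptger3 was at 43.3, 31.1, 46.0 and 36.8 CPM in KPC-OG 1 to 4 and at 101, 81.7, 108 and 115 CPM in KPC 1 to 4. The groups were far apart, and Ptger3 fell by 1.37 ± 0.17 on the log2 scale (edgeR adjusted p = 6.84e-04). With library sizes alone its log2 fold change was 0.34 and not called (adjusted p = 0.182), so its fall is relative to the typical gene. Among the prostaglandin E2 receptor genes, Ptger3 was thus lower in KPC-OG, and Ptger1, Ptger2 and Ptger4 were not called.

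The lipoxygenase and leukotriene branch, which competes for the same arachidonic acid, had 13 of 18 genes tested, of which 6 were higher and 1 lower, beside 17.4% and 16.6% of all genes. The median log2 fold change of the 13 was 1.52. Alox5ap, the protein that presents arachidonic acid to the lipoxygenase Alox5, was at 14.3 CPM in KPC-OG and 3.63 CPM in KPC (log2 fold change 1.99 ± 0.24 SE, edgeR adjusted p = 6.84e-04). Alox5 itself was at 10.97 CPM in KPC-OG and 2.83 CPM in KPC (1.98 ± 0.31 SE, edgeR adjusted p = 0.00149). The leukotriene C4 synthases Ltc4s and Mgst2 rose by 1.87 ± 0.23 and 2.42 ± 0.40 on the log2 scale (edgeR adjusted p = 6.84e-04 and 0.00193). Alox5ap, Alox5, Ltc4s and Mgst2 were called under all 22 alternatives. The gene called lower was Alox8, named after its values were seen (log2 fold change -1.33 ± 0.33 SE, edgeR adjusted p = 0.0125).

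**Figure D3:**
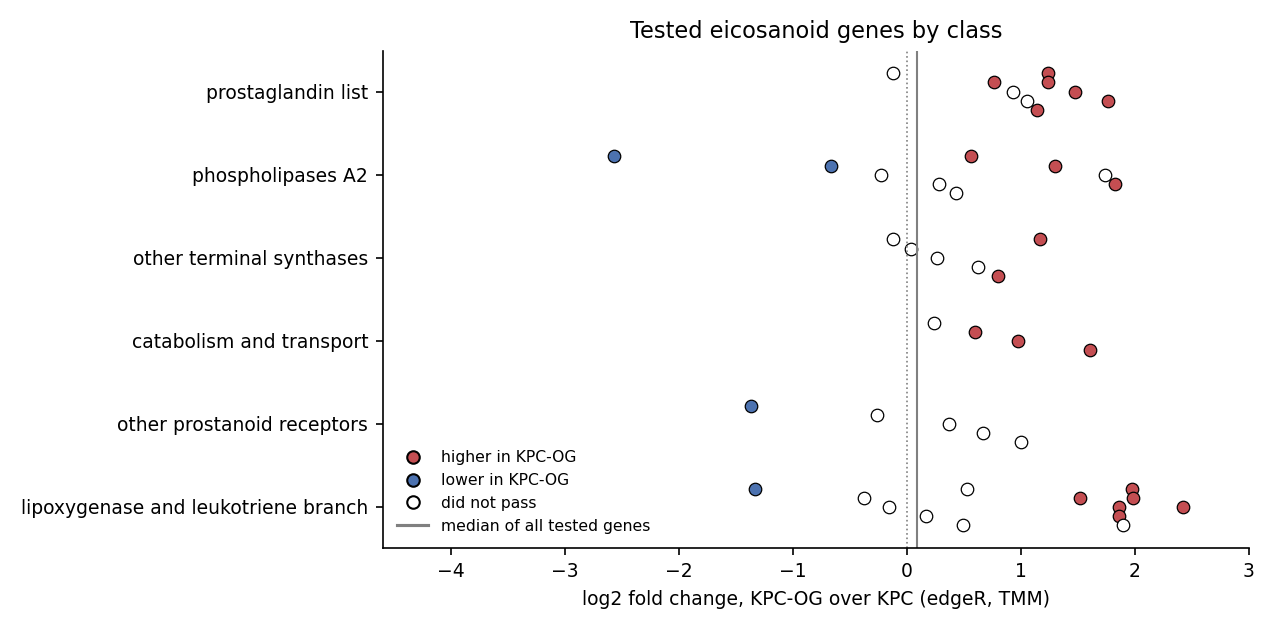
Log2 fold change, KPC-OG over KPC (horizontal axis), of each tested gene, with the prostaglandin list at the top and the 5 classes of other eicosanoid genes under it, red points called higher, blue points called lower and open points not called. The grey line is the median of all tested genes at 0.09, and 6 filled points of the prostaglandin list and 6 of the lipoxygenase and leukotriene branch lie to its right.

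Lists of 8 marker genes for each of 10 cell types differed between the groups too, and their part in the results above was not tested. Acinar markers, led by Ctrb1 and Cpb1, summed to 44300 to 136000 CPM in KPC-OG and 262000 to 491000 CPM in KPC, and 7 of 8 fell. Duct markers, led by Spp1 and Krt19, summed to 608 to 1320 CPM in KPC-OG and 269 to 355 CPM in KPC, and 6 of 8 rose. Fibroblast and stellate markers, led by Col3a1 and Col1a2, summed to 1640 to 4640 CPM in KPC-OG and 983 to 1310 CPM in KPC, and 7 of 8 rose. Among the KPC-OG libraries, Pla2g4a and Ptgis were lowest in KPC-OG 3. The duct, tuft, fibroblast and smooth muscle sums of that group were lowest there too.

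Macrophage markers, led by Lyz2 and Csf1r, summed to 701 to 991 CPM in KPC-OG and 215 to 415 CPM in KPC, and 7 of 8 rose. Hpgds, Alox5, Alox5ap, Ltc4s and Tbxas1, which macrophages are known to express, were called higher in KPC-OG too. They did not all follow the macrophage sum within KPC-OG. KPC-OG 3 had the highest sum (991 CPM) and the lowest Alox5 (6.88 CPM) and Alox5ap (10.8 CPM) of its group. Tbxas1 was highest there (16.7 CPM), and Hpgds and Ltc4s were neither highest nor lowest. Tuft cell markers, led by Dclk1 and Avil, summed to 26.2 to 89.5 CPM in KPC-OG and 11.1 to 15.4 CPM in KPC. The 3 of them that were tested rose, and Il25 and Chat were at 0 in every KPC library. Tuft cells are known to express Ptgs1, Hpgds and Alox5. Mast cell markers, led by Kit and Cpa3, summed to 14.6 to 19.5 CPM in KPC-OG and 22.7 to 24.1 CPM in KPC. Kit, which other cells also express, made up most of that sum, at means of 12.4 CPM in KPC-OG and 21.8 CPM in KPC. Every other marker of the list had a higher mean in KPC-OG than in KPC, at 1.08 CPM or below. Of 3 mast cell markers tested, Hdc rose and Kit fell, and Fcer1a and Ms4a2 were at 0 in every KPC library.

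Mesothelium markers, led by Krt8, which epithelium also expresses, and Msln, summed to 273 to 481 CPM in KPC-OG and 140 to 192 CPM in KPC, and 3 of 7 tested rose. Krt8 made up most of that sum, at 231 to 433 CPM in KPC-OG. Of the KPC-OG libraries, KPC-OG 3 was lowest in Krt8 and Wt1 (3.21 CPM) and highest in Msln (20.2 CPM). Endothelium markers, led by Pecam1 and Plvap, overlapped, at 84.4 to 131 CPM in KPC-OG and 97.4 to 131 CPM in KPC, and 1 of 8 rose (Vwf). Smooth muscle and pericyte markers, led by Rgs5 and Acta2, summed to 111 to 427 CPM in KPC-OG and 100 to 172 CPM in KPC, and 1 of 8 rose (Mylk). Megakaryocyte and platelet markers, led by Pf4 and Itga2b, summed to 8.40 to 10.1 CPM in KPC-OG and 3.45 to 5.26 CPM in KPC. Of 2 platelet markers tested Pf4 rose, and Treml1 and Tubb1 were at 0 in every KPC library. Ptgs1 and Tbxas1 are also known from platelets.

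**Figure D4:**
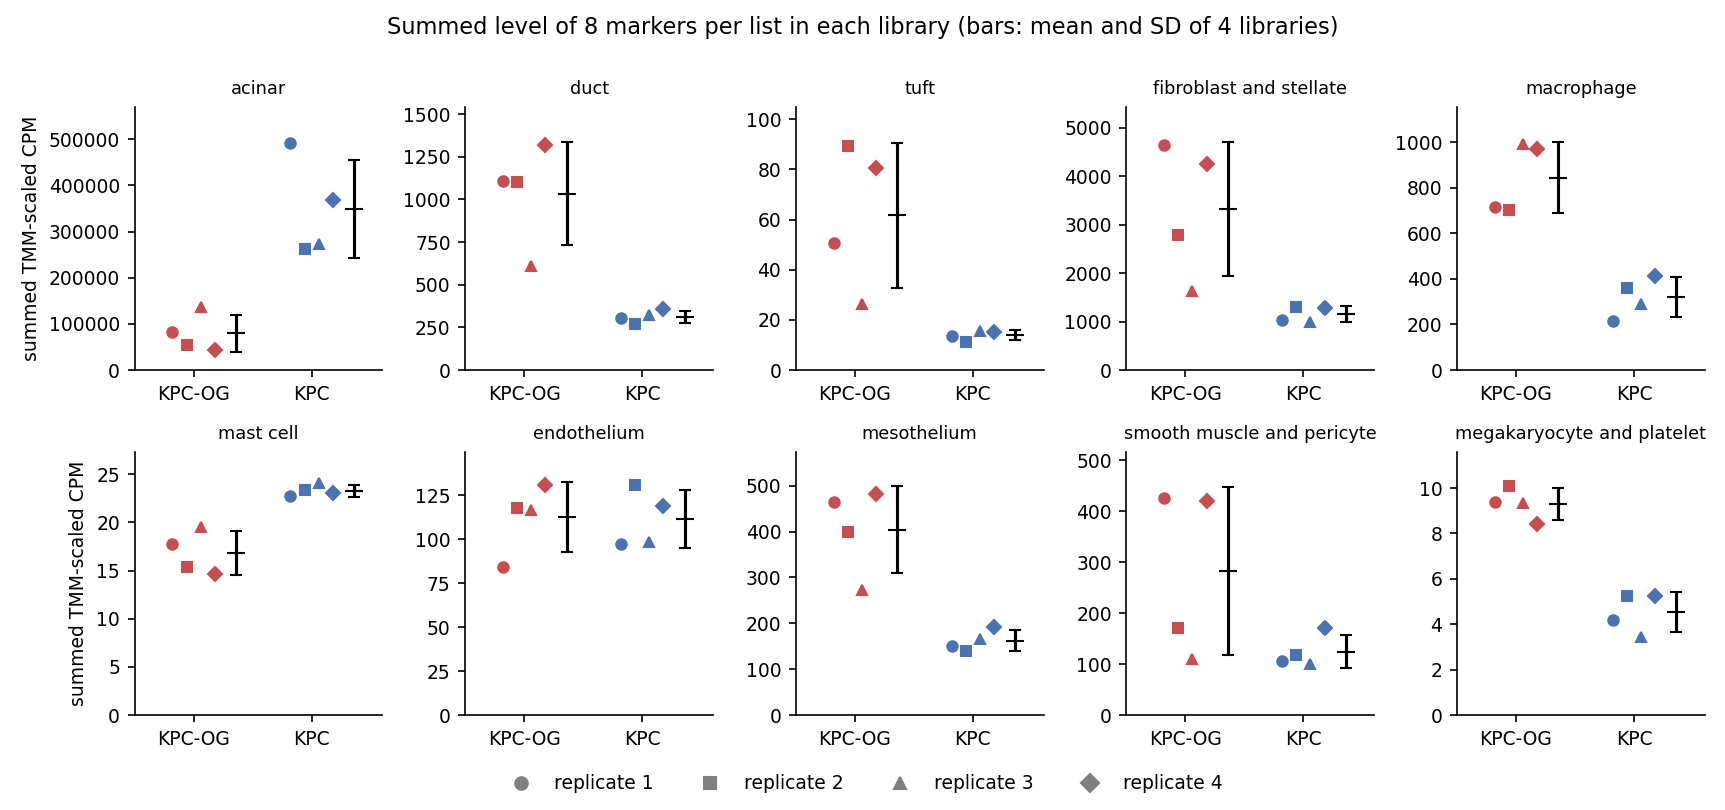
Summed TMM-scaled CPM (vertical axis, linear, a different scale in each panel) of 8 markers for each of 10 cell types in the 4 KPC-OG libraries (left, red) and the 4 KPC libraries (right, blue), with mean and SD as black bars. Acinar sums are lower in every KPC-OG library, at 44300 to 136000, duct, fibroblast, macrophage and tuft sums are higher in every one, and endothelium sums overlap.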

How the data were processed

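Sample titles gave the groups and the replicate numbers. Sailfish 0.6.3 was run by the authors, per the file headers, with bias correction, 1000 iterations and a k-mer length of 20 on an Ensembl release 76 mouse index. The deposited estimated counts are reads that Sailfish assigned to each transcript, and they need not be whole. The deposited TPM values are Sailfish abundances scaled within each library, per the file headers. The tools STAR 2.0.4b, bcl2fastq, limma and edgeR appear in the submitters' processing notes without their roles. The deposited transcript length served only for a length offset.

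Of 86127 transcripts, 83827 matched a GENCODE M21 gene (GRCm38) and the 2300 others, which held 1.45% to 3.04% of reads in KPC-OG and 3.93% to 4.23% in KPC, were left out. Estimated counts were summed over each gene's transcripts and rounded to whole numbers. The 10 genes and all lists were chosen with earlier results of these data known. The test was edgeR 4.0.16 in R 4.3.3 (quasi-likelihood, robust, TMM, filterByExpr, Benjamini-Hochberg), with limma 3.58.1 and DESeq2 1.42.0 as alternatives. CPM is a gene's reads divided by library size times TMM factor, on the usual CPM scale. Fold intervals are 95% intervals of the fit. Use of strand is not stated, so reads of any transcript sequence shared by overlapping genes (Ttc33 at Ptger4) are divided by estimation. Overlap was read from whole gene spans, not from exons. Dpep2 has 2 gene IDs, and the one with more reads was used. Libraries of a group differed by more than counting noise (chi-square per degree of freedom at least 14.7), so no library appears to be deposited more than once, which does not show that they came from separate mice.

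Named genes are the 10 genes and, of the other eicosanoid classes, those that passed where 5 or fewer did, otherwise the 4 smallest adjusted p, with the highest TPM of each class. Of each marker list the 2 highest in CPM are named. Sex, for a covariate, was read from Y-linked genes and both groups held both sexes. In data simulated for this comparison with 14267 genes, the test recovered 50 of 100 genes planted with a 2-fold change and 88 of 100 with a 4-fold change, and 4 of 142 calls were false. Changes were planted only in genes with at least 5 expected reads in the library of least effective depth. As many were planted up as down, and all other genes were left unchanged at the fitted scaling. The simulation therefore does not test the scaling, on which the calls in the data depended. Ptger2 lay below that floor, so the recovery does not describe genes as low as Ptger2.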

Additional observations from a re-analysis of the deposited data

Results flagged for a closer look

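The log2 ratio of Hpgds to Ptgds reads in KPC 4 was 5.55, against 2.40 to 2.94 in the other KPC libraries, a gap that passed Dixon's 95% limit for 4 samples (0.83 of the range). KPC 4 had 23 Hpgds reads and no Ptgds read, so its ratio rests on the 0.5 added to each count. Of 28 groups of 4 values examined in this way 1 was flagged, and chance flags about 1 in 20.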

How the results depend on the processing

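The 6 genes called higher among the 9 tested were the same 6 with DESeq2 size factors, with Lars2 left out, with the DESeq2 test, with no filter, with a transcript length offset, after thinning to 1 effective depth and with sex as a covariate. The count was 3 with library sizes re-centred on the median gene, 3 with limma-voom, and 2 and 1 with TPM at pseudocounts of 1 and 0.1 (Ptgis, Ptges, Hpgds and Hpgd lost at both, Ptgs1 at 0.1), and leaving out each library gave 5 to 6 higher and 0 lower. With TPM at a pseudocount of 1, 1 gene was called lower: Ptger2, at -0.55 (adjusted p = 0.0291), and Ptgs2 was at -0.30. Their TPM lies near or below that pseudocount while the median gene's 1.31 is subtracted, so that setting pulls low genes down by construction. Ptger4 turned to 1.63 with library sizes alone and to 0.0253 without both KPC-OG 2 and KPC-OG 3, Pla2g12a to 1.07 and Ptger3 to 0.34 with library sizes alone, a setting that moves the typical gene by 1.74.

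The 14 other eicosanoid genes called higher became 33 with library sizes alone, 8 with these re-centred, 9 with limma-voom, and 8 and 7 with TPM at pseudocounts of 1 and 0.1. The 4 called lower became 1 with library sizes alone and 2 re-centred. Leaving out each library gave 10 to 14 higher and 4 lower. Over all genes, the 2486 called higher became 13078, 917, 987 and 616 with library sizes alone, re-centred, and TPM at the same pseudocounts, and the 2373 called lower became 99 and 1400 with library sizes alone and re-centred, and 1008 with TPM at 0.1. Without each library in turn they were 1689 to 2880 higher and 1705 to 2548 lower.

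The difference of the Ptgs2 to Ptgs1 ratio was -0.20 in TPM, -0.068 with 1 read added, and -0.78 to 0.83 without each library. The same ranges were 0.13 to 0.56 for Ptges to Hpgd, 0.47 to 1.55 for Hpgds to Ptgds and -1.23 to -0.89 for Ptger4 to Ptger2. With 2 KPC-OG libraries against 4, or with 4 pairs and a sign-flip test, the ratio tests cannot pass.

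Same-numbered libraries deviated together at r = 0.274, 0.275, 0.0385 and 0.0361, and not every library correlated best with its own number, so the numbers were not taken as pairs. With the replicate block edgeR called the same 6 of the 9 genes higher and 0 lower, 14 and 4 of the other eicosanoid genes, and 2477 and 2418 of all genes.

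Depth limits Ptgs2, Ptger2 and Ptgds most, with at most 12, 5 and 3 reads in a KPC library. Counts are estimates, so their counting error is a lower limit. The cause of the lost calls was not tested. RNA levels do not measure prostaglandins or enzyme activity.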
